A study of Mus musculus with 18 samples.

Results

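A set of 9 genes of fat-hormone signalling, 9 of the 23474 listed, was followed through every library of the study: leptin (Lep) and its receptor (Lepr), adiponectin (Adipoq) and its receptors (Adipor1, Adipor2), resistin (Retn), retinol-binding protein 4 (Rbp4), nicotinamide phosphoribosyltransferase (Nampt) and apelin (Apln). They were chosen by symbol, with earlier results of these data known, and all 9 had a row in the table. The animals were male C57BL/6J mice, an inbred laboratory strain, aged 17 weeks and housed singly. From 5 weeks of age, for 12 weeks, 1 group ate a normal diet (ND) and a second a high-fat diet (HFD). The third group (GT) ate the same high-fat diet containing an ethanol extract of green tea at 0.25% by weight. Epididymal adipose tissue, the fat pad beside the testis, and liver each gave 3 polyA RNA libraries per diet, 18 in all, each named here by its diet and number. The labels do not say whether a library came from 1 mouse or a pool, so p-values measure the spread between these libraries, which may be partly technical.

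Leptin is secreted by fat cells in proportion to fat stores and acts on the brain, where the long form of its receptor signals through JAK2 and STAT3 to restrain feeding, while shorter forms of the receptor occur in many tissues. Adiponectin, another fat-cell hormone, circulates at lower levels in obesity and acts through its 2 receptors on AMP-activated kinase, PPARα and ceramide breakdown in liver and muscle. Resistin is made by fat cells in mice and opposes insulin action. Rbp4 carries retinol in blood and is made mainly by hepatocytes, with a smaller part from fat cells. Nampt is the rate-limiting enzyme of NAD salvage and is also found outside cells, and apelin is a peptide ligand of the receptor Aplnr.

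Levels are given in FPKM, fragments per kilobase of transcript scaled to the mapped fragments of a library, which are per length and can be compared between genes. Changes are log2 differences ± SE from limma on log2(FPKM + 1), a scale that understates changes of genes with low FPKM. The threshold was a Benjamini-Hochberg adjusted p of 0.05 over all genes fitted.

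The fat library ND 1 stood apart from the others in its tissue markers. Its summed FPKM over 20 testis markers was 114600 and over 10 epididymis markers 21610, while its sum over 15 adipocyte markers was 4558 against 23300 to 54830 in the other 8 fat libraries. ND 3 and HFD 1 held smaller testis sums of 3879 and 2497, and HFD 2 an epididymis sum of 1275. FPKM totals were 527904 to 608819 in those 8 libraries, 1002765 in fat ND 1 and 680168 to 930139 in liver. Read numbers were not used here, so the depth is unknown. Hepatocyte markers summed to 37760 to 46850 in 8 liver libraries and to 16310 in liver HFD 3, where albumin (Alb) was listed at 0. Alb alone stood at 21156 to 28177 FPKM in those 8 libraries. In liver HFD 3, 10 hepatocyte markers reached 10 FPKM and only Alb was at 0. Fat results are therefore given without ND 1 first, which leaves 2 ND libraries, and then with it.

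The starts of 4 of these genes are shown because their transcripts changed most or differed most between the tissues: 3 are fat hormones and the fourth is the receptor whose level depended on the diet in liver. Each run is the 250 bases before the first RefSeq start of the gene in build GRCm38.p6, on the gene's strand, 5′ to 3′. Capitals mark letters of a searched motif.
Lep, chr6:29059971-29060220, plus strand: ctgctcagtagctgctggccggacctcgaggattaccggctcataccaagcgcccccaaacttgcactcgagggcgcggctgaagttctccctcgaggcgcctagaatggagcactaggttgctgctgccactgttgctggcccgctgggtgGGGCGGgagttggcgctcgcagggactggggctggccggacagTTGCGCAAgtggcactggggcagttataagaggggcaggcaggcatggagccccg
Adipoq, chr16:23146286-23146535, plus strand: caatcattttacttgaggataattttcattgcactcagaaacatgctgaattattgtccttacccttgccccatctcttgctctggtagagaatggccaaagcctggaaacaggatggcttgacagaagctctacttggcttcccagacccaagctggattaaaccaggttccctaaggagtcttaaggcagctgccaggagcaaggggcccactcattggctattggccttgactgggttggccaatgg
Retn, chr8:3655520-3655769, plus strand: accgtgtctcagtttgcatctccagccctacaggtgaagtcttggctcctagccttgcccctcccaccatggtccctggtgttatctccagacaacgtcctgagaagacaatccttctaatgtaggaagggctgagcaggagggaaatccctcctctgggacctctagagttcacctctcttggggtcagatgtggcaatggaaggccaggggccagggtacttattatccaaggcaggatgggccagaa
Lepr, start 1, chr4:101717157-101717406, plus strand: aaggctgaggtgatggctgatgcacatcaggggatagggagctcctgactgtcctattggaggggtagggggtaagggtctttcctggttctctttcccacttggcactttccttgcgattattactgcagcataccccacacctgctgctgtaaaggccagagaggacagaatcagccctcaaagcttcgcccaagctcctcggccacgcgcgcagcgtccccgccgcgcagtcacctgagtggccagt
The patterns searched on both strands were the TATA box TATAAA, the C/EBP pattern TTGCNNAA, the GC box GGGCGG, the E-box CACGTG and the direct repeat bound by PPARγ with RXR. The capitals of the Lep window are a match to the C/EBP pattern, whose first base lies at -55, and a GC box at -98. Windows of all 32851 RefSeq starts held TTGCNNAA in 9.56%, GGGCGG in 32.7%, TATAAA in 12.4%, CACGTG in 6.02% and the direct repeat in 0.338%. The Adipoq, Retn and first Lepr windows held none of these letter patterns, while the window of a second RefSeq start of Lepr, not shown, held a GC box at -164. A match describes the letters only.

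In epididymal fat without ND 1, the high-fat diet was accompanied by more leptin transcript and less of adiponectin, resistin, Rbp4 and the adiponectin receptor Adipor2. Lep rose while 4 genes fell, 5 of 9 against 27.4% of the 12859 genes fitted, and the share of all genes was 17.8% higher and 9.62% lower. The remaining 4 genes, Lepr, Adipor1, Nampt and Apln, did not pass the test. Adipoq, Retn, Rbp4 and Adipor2 had every HFD library below both ND libraries, which 20.2% of all genes showed. Falls were thus the larger part of the members' calls and rises the larger part over all genes.

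Lep stood at 323 FPKM in ND 2 and 317 in ND 3. On the high-fat diet it stood at 899, 1196 and 1186 in HFD 1, HFD 2 and HFD 3. The lowest HFD library lay far above both ND libraries, and the log2 change was 1.76 ± 0.18 (limma, adjusted p = 0.00118). In ND 1 the value was 7.97 FPKM, below every other fat library.

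Adipoq, at 2781 and 1826 FPKM in ND 2 and ND 3, was at 1027, 1037 and 908 in HFD 1, HFD 2 and HFD 3. The HFD libraries lay close together and below both ND libraries, which differed from each other by more than the whole HFD range. The change was -1.19 ± 0.26 (limma, adjusted p = 0.0118). ND 1 held 202 FPKM of Adipoq.

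Retn fell furthest of the 9 genes. It stood at 1128 and 679 FPKM in ND 2 and ND 3 and at 268, 270.1 and 171 in HFD 1, HFD 2 and HFD 3, with no overlap, a change of -1.91 ± 0.29 (limma, adjusted p = 0.00269). In ND 1 it was at 350.0 FPKM, above all 3 HFD libraries.

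Rbp4 gave 568 and 387 FPKM in ND 2 and ND 3 and 177, 172 and 181 in HFD 1, HFD 2 and HFD 3. The 3 HFD values were nearly alike, all under the lower ND value. It fell by 1.40 ± 0.18 on the log2 scale (limma, adjusted p = 0.00162), and ND 1 stood at 71.1 FPKM.

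Among the receptors, Adipor2, which couples adiponectin to PPARα and ceramidase activity, fell and Adipor1, which is coupled to AMP-activated kinase, was not called. Adipor2 stood at 366 and 332 FPKM in ND 2 and ND 3 and at 152, 168 and 139 in HFD 1, HFD 2 and HFD 3. The 2 diets did not overlap, and the change was -1.18 ± 0.18 (limma, adjusted p = 0.00294). Adipor1 was at 76.5 and 74.6 FPKM in ND 2 and ND 3 against 71.1, 71.8 and 77.1 in the HFD libraries. Its ranges overlapped, and the 95% interval of its log2 change ran from -0.28 to 0.20 (limma, adjusted p = 0.793).

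Lepr was the lowest of the 9 genes in fat, at 1.43 and 0.877 FPKM in ND 2 and ND 3 and 0.657, 1.10 and 0.961 in the HFD libraries. These ranges overlapped (change -0.17, limma adjusted p = 0.579). Nampt stood at 27.8 and 19.9 FPKM in ND 2 and ND 3 and 24.3, 33.0 and 32.3 in the HFD libraries, again with overlap (change 0.32, limma adjusted p = 0.252). Apln gave 4.06 and 6.00 FPKM in ND 2 and ND 3 and 4.24, 5.75 and 3.24 in the HFD libraries (change -0.16, limma adjusted p = 0.718).

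**Figure D1:**
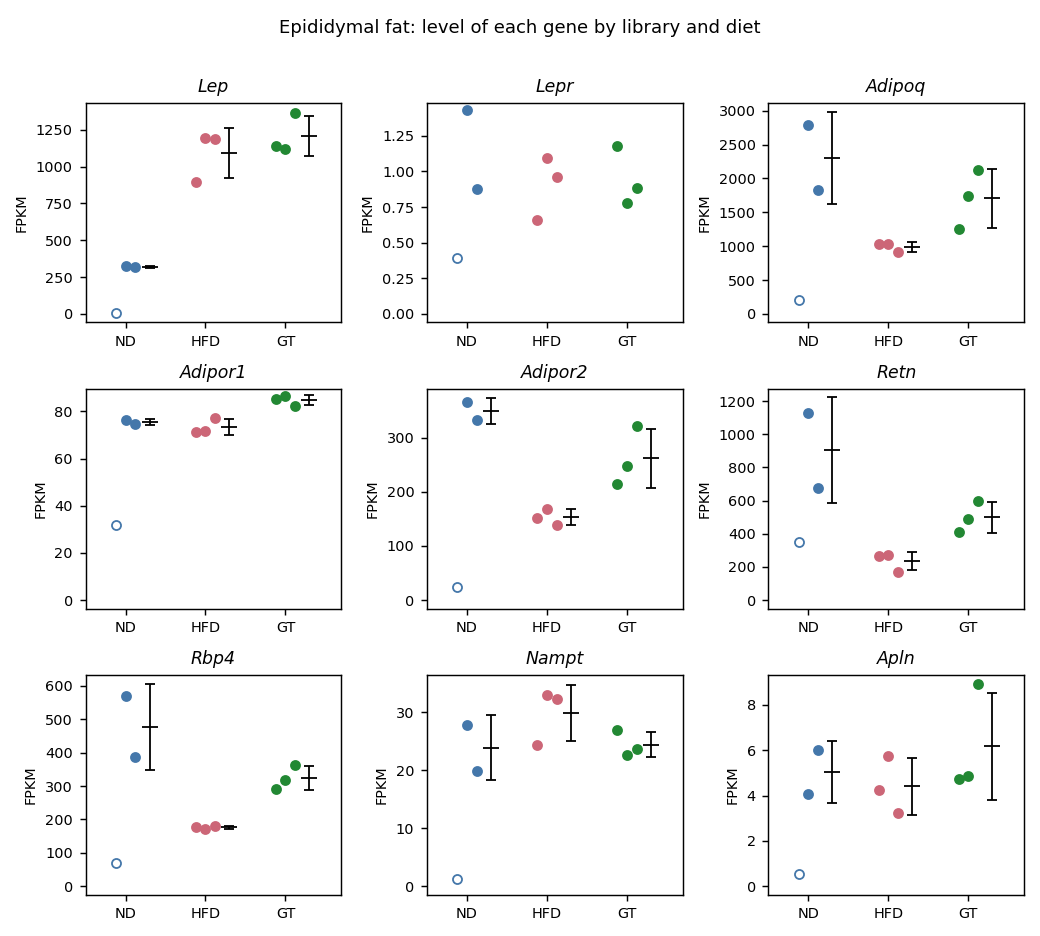
FPKM (linear axes, 1 panel a gene) of the 9 genes in the 9 epididymal fat libraries by diet; each dot is 1 library, the open circle is ND 1, and bars are mean ± SD without ND 1 for genes with a library of at least 2 FPKM. Lep is higher in every HFD and GT library than in ND 2 and ND 3 (at most 323 FPKM), while Retn is highest in ND 2 at 1128 FPKM and lowest in HFD 3 at 171.

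The make-up of the tissue moved with these changes. The 15 adipocyte markers summed to 35940 and 54830 FPKM in the 2 ND libraries, to 23300 to 25330 in HFD and to 32400 to 42430 in GT, and no marker of the list was at 0 in any of these libraries. From ND to HFD, 9 of the 15 fell and 0 rose, with a median change of -0.88 against 0.01 over all genes. The 12 macrophage markers summed to 446 to 569 FPKM in the 2 ND libraries, 3867 to 5443 in HFD and 1413 to 3452 in GT, and 12 of 12 rose from ND to HFD with a median change of 3.14. Of 9 endothelial markers 0 were called by limma, and 2 had an unadjusted p under 0.05. In these bulk libraries fewer cells of a type and less RNA per cell cannot be told apart, and the part of these marker shifts in the members' changes was not tested.

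Set against the adipocyte marker sum, the members differed in how the diets were ordered. Fabp4 and Car3 made up 61.7% to 74.9% of that sum. Car3 itself stood at 17765 and 10420 FPKM in ND 2 and ND 3, 2347 to 3013 in HFD and 5526 to 10713 in GT. Fabp4 in ND 3, at 13012 FPKM, lay within its HFD range of 12038 to 14495. The scale thus follows Car3 in part and is not a steady measure of adipocytes. Per 1000 FPKM of the markers, Adipoq stood at 50.7 and 50.8 in ND 2 and ND 3. It was at 40.5, 41.9 and 39.0 in the HFD libraries and 38.9, 46.3 and 50.2 in the GT libraries. Adipor2 stood at 6.67 and 9.23 in ND 2 and ND 3 against 6.01, 6.79 and 5.98 in HFD, so its ranges overlapped on this scale. Lep was at 5.89 and 8.81 in ND 2 and ND 3, 35.5, 48.4 and 50.9 in HFD, and 35.3, 29.7 and 32.2 in GT. This scale thus kept the HFD libraries above ND for Lep. Every GT library lay below every HFD library here, where the marker sum was higher in GT and the FPKM of Lep overlapped.

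Retn on the same scale stood at 20.6 and 18.9 in ND 2 and ND 3, 10.6, 10.9 and 7.36 in HFD, and 12.7, 12.9 and 14.1 in GT. Rbp4 stood at 10.4 and 10.8 in ND 2 and ND 3, 6.97, 6.95 and 7.76 in HFD, and 9.0, 8.46 and 8.53 in GT. For both genes the 3 diets did not overlap, with ND highest and HFD lowest.

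Adipor1 and Nampt, whose FPKM overlapped between ND and HFD, were apart on this scale. With ND 1 left out, the marker sum was lowest in the HFD libraries. A gene with even FPKM over the diets is therefore highest in HFD here by division alone. The order of these 2 genes is given as a description and not read as a diet effect. Adipor1 stood at 1.40 and 2.07 in ND 2 and ND 3, 2.81, 2.90 and 3.31 in HFD, and 2.63, 2.30 and 1.94 in GT, where GT 3 reached into the ND range. Nampt stood at 0.507 and 0.553 in ND 2 and ND 3, 0.958, 1.33 and 1.39 in HFD, and 0.829, 0.603 and 0.557 in GT. Both were higher in every HFD library than in every other fat library but ND 1, where Adipor1 stood at 7.02. Apln overlapped between all 3 diets, at 0.0741 to 0.232, and so did Lepr, at 0.0207 to 0.0443, ND 1 left out. No test was made on this scale.

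The ratio of adiponectin to leptin transcript, a pair often read together because the hormones move oppositely with fat mass, was 8.62 and 5.77 in ND 2 and ND 3. It was 1.14, 0.867 and 0.765 in HFD 1, HFD 2 and HFD 3, and 1.10, 1.56 and 1.56 in GT 1, GT 2 and GT 3. HFD and GT libraries overlapped only through GT 1, and both diets lay far below ND.

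**Figure D2:**
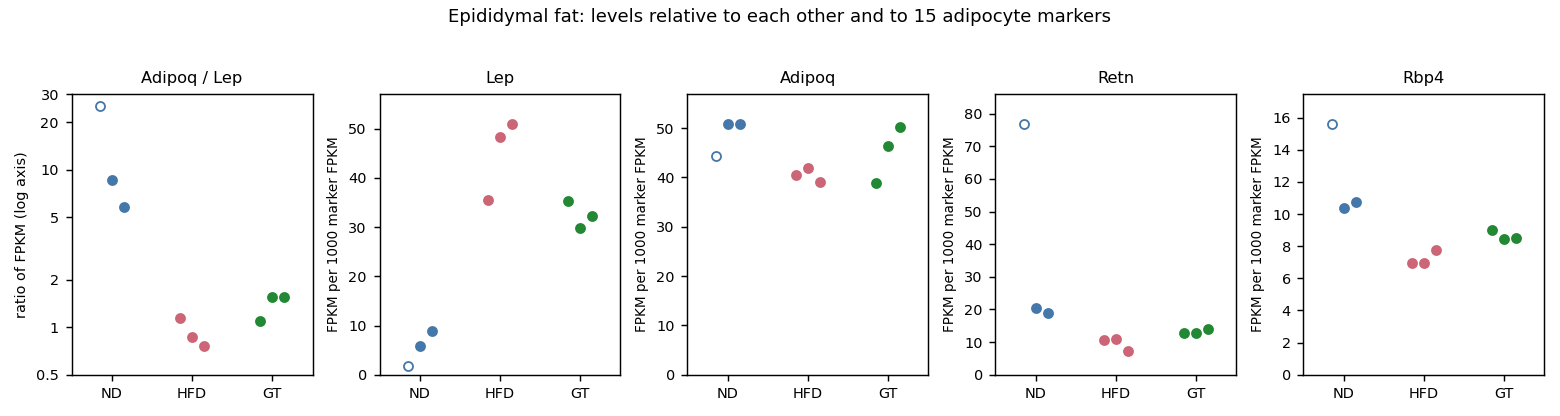
The ratio of Adipoq to Lep FPKM (log axis), and FPKM of Lep, Adipoq, Retn and Rbp4 per 1000 FPKM of the 15 adipocyte markers (linear axes), in each fat library by diet; each dot is 1 library and the open circle is ND 1. Lep is at least 29.7 in every HFD and GT library and at most 8.81 in ND, while Adipoq stays between 38.9 and 50.8 in all 9.

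With the extract added to the high-fat diet, the 4 genes that had fallen were all higher than on the high-fat diet alone, without overlap of libraries, but only Rbp4 passed the test. Without ND 1, 1 of 9 genes was called against 1.70% of all genes, and 0.894% of all genes were called higher. In all, 5 members (Adipoq, Adipor1, Adipor2, Retn and Rbp4) had every GT library above every HFD library, a pattern that 12.4% of all genes showed.

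Rbp4 stood at 292, 318 and 362 FPKM in GT 1, GT 2 and GT 3, above the HFD libraries at 172 to 181. The change was 0.87 ± 0.16 (limma, adjusted p = 0.0486). That call is thin: adjusted p rose to between 0.126 and 0.226 when HFD 1, HFD 2, HFD 3, GT 2 or GT 3 was left out, while the change stayed between 0.79 and 0.94 over all 8 left-out libraries.

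Retn stood at 411, 486 and 598 FPKM in the GT libraries, all above the highest HFD library at 270.1, with a change of 1.09 ± 0.26 (limma, adjusted p = 0.0733). Adipor2 gave 215, 247 and 322 FPKM in GT 1, GT 2 and GT 3 against at most 168 in HFD (change 0.75 ± 0.16, limma adjusted p = 0.0671). Adipoq gave 1258, 1741 and 2129 FPKM in GT against at most 1037 in HFD (change 0.76 ± 0.23, limma adjusted p = 0.119). These 3 genes did not pass the threshold although their libraries did not overlap. With a library left out 2 of them passed: Retn without ND 2 or ND 3 (lowest adjusted p 0.0422, limma) and Adipor2 without ND 2, ND 3 or GT 1 (lowest adjusted p 0.0465, limma). The ND libraries do not enter this difference. Leaving 1 of them out kept both changes as they were and altered only the shared estimate of the spread.

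GT 3 held the most Adipoq, Retn, Rbp4 and Adipor2 of the GT libraries and GT 1 the least. The adipocyte marker sum was likewise highest in GT 3 at 42430 FPKM and lowest in GT 1 at 32400, and the macrophage sum lowest in GT 3 at 1413 and highest in GT 1 at 3452. Between HFD and GT, 4 of 15 adipocyte markers rose by limma (median change 0.78), where 0.894% of all genes did. Of 12 macrophage markers 0 were called by limma, and 12 had an unadjusted p under 0.05 (median change -1.07). The median over all genes was -0.12. The share of all genes at that unadjusted p is not given, so no result is read from that count. The part of these shifts in the members' values was not tested.

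Lep did not follow the other hormones. It stood at 1143, 1117 and 1366 FPKM in GT 1, GT 2 and GT 3, overlapping HFD, and the 95% interval of the log2 change from HFD ran from -0.21 to 0.51 (limma, adjusted p = 0.609). Adipor1 was slightly higher in GT, at 85.4, 86.5 and 82.3 FPKM against at most 77.1 in HFD, a difference of 0.21 ± 0.09 that did not pass (limma, adjusted p = 0.239).

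Nampt stood at 26.9, 22.7 and 23.7 FPKM in the GT libraries, overlapping HFD through HFD 1 (change -0.27, limma adjusted p = 0.381). Apln gave 4.74, 4.87 and 8.90 FPKM, with GT 3 the highest of all fat libraries (change 0.39, limma adjusted p = 0.433). Lepr gave 1.18, 0.778 and 0.885 FPKM (change 0.03, limma adjusted p = 0.936).

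Against the normal diet, the extract-fed fat differed by test only in leptin. Without ND 1, Lep was higher in GT than in ND by 1.91 ± 0.18 (limma, adjusted p = 0.00249), the only call among 9 genes, against 10.7% of all genes. With only the ND and GT libraries fitted, its adjusted p was 0.0537 at the same change. Retn, Rbp4 and Adipor2 stood below both ND libraries in every GT library, which 24.2% of all genes showed, with changes of -0.83 (adjusted p = 0.103), -0.54 (adjusted p = 0.0933) and -0.43 (adjusted p = 0.163) in limma. Without ND 3, which left 1 ND library, the Rbp4 change was -0.81. Adipor2 passed without GT 3 (limma, adjusted p = 0.0444). Adipoq overlapped ND, at -0.43 (limma, adjusted p = 0.298). These 3 comparisons share libraries, the HFD set in the first 2 and the ND set in the first and the third.

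With ND 1 kept, 0 of 9 members passed in any of the 3 comparisons by limma, against 5.65% of the 13762 genes for HFD minus ND, 0.00% for GT minus HFD and 0.639% for GT minus ND. At an unadjusted p under 0.05 there were 2 members (Lep and Retn), 1 (Retn) and 1 (Lep). For HFD minus ND the Lep change was then 3.48 ± 1.24 (limma, adjusted p = 0.173) and the Retn change -1.47 ± 0.45 (limma, adjusted p = 0.117). Adipoq and Adipor2 moved to -0.03 and 0.08 in the same comparison, and no direction is read from them. No second tool was run.

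**Figure D3:**
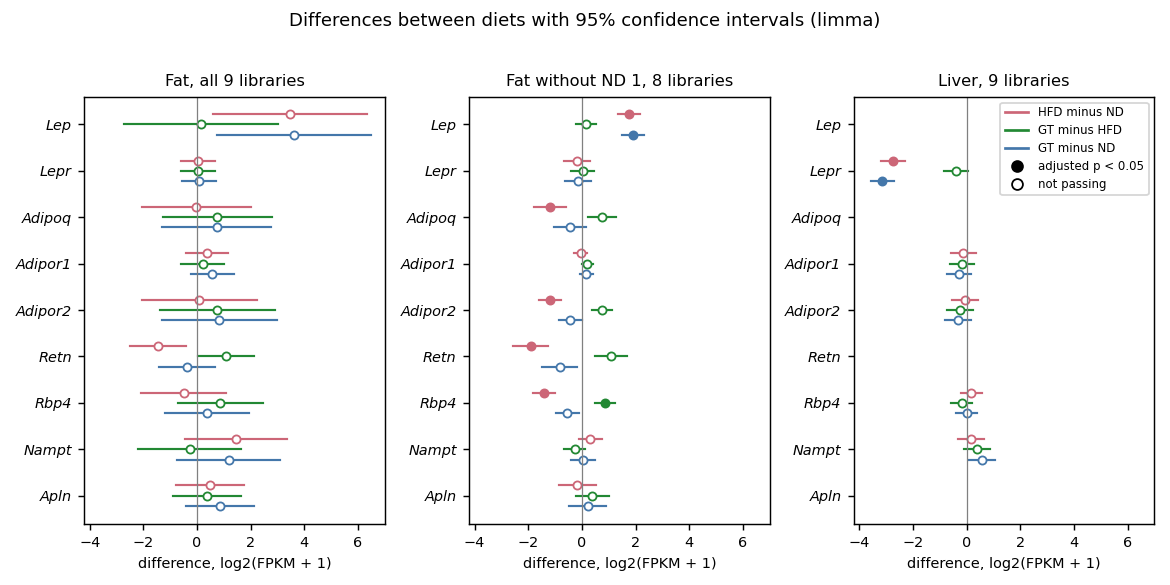
Log2 changes of the members (limma, log2(FPKM + 1)) with 95% intervals for all 9 fat libraries, fat without ND 1 and liver in the 3 diet comparisons; filled symbols passed an adjusted p of 0.05. In fat without ND 1, Lep is at 1.76 and Retn at -1.91 for HFD minus ND, and in liver Lepr is at -2.75.

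In liver the leptin receptor fell on both high-fat diets and no other member was called. Lepr stood at 14.0, 7.81 and 12.7 FPKM in ND 1, ND 2 and ND 3. On the high-fat diet it was at 0.862, 0.886 and 0.689, and with extract at 0.352, 0.555 and 0.229. The lowest ND library lay several times above the highest library of either high-fat diet.

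For HFD minus ND the Lepr change was -2.75 ± 0.20 (limma, adjusted p = 0.000124), a ratio of mean FPKM of 0.0707. For GT minus ND it was -3.15 ± 0.20 (limma, adjusted p = 5.92e-05), a ratio of 0.0330. Lepr passed the filter, at least 3 libraries with 1 FPKM, only through its 3 ND libraries. Each GT library was below each HFD library, which 18.2% of the 10670 genes fitted showed, and all these Lepr values were under 1 FPKM. The difference of -0.40 ± 0.20 did not pass (limma, adjusted p = 0.248). The HFD minus ND and GT minus ND calls held when any 1 library was left out, with changes of -2.98 to -2.60 and -3.38 to -3.00. The filter was set before a library was left out. Lepr therefore stayed in without an ND library, where it would not have reached the filter anew.

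Since Lepr entered the fit through the diet where it was high, its calls are not read as a share of the members. Of the other 4 members that passed the liver filter, Rbp4, Adipor2, Adipor1 and Nampt, 0 were called by limma in any comparison. The share of the 10670 genes fitted was 18.6% for HFD minus ND, 5.36% for GT minus HFD and 2.60% for GT minus ND. At an unadjusted p under 0.05 only Nampt stood out, for GT minus ND. These 4 were well expressed in every liver library.

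Rbp4 was the most abundant member in liver. It stood at 2854, 3583 and 2653 FPKM in ND, 3535, 3763 and 2922 in HFD and 3026, 2782 and 3202 in GT, with the 3 diets overlapping. The 95% interval of HFD minus ND ran from -0.22 to 0.57 (limma, adjusted p = 0.521).

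Adipor2 stood at 162, 139 and 157 FPKM in ND, 156, 139 and 146 in HFD, and 138, 160.0 and 82.3 in GT. Adipor1 stood at 33.4, 31.6 and 31.4 FPKM in ND, 32.7, 27.1 and 28.7 in HFD, and 31.4, 31.6 and 17.8 in GT. For both receptors GT 3 was the lowest of the 9 liver libraries. Neither gene passed in any comparison (limma, adjusted p of 0.509 to 0.883 for Adipor2 and 0.523 to 0.706 for Adipor1). GT 3 also held a skeletal muscle marker sum of 55.6 FPKM, and HFD 2 one of 135, against 28.9 in HFD 3 and 3.44 or less elsewhere in liver. The part of this in the 2 receptors' values was not tested.

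Nampt stood at 10.3, 14.2 and 15.9 FPKM in ND, 13.9, 13.6 and 17.7 in HFD, and 24.9, 21.8 and 14.7 in GT. GT 1 and GT 2 were above every other liver library and GT 3 was within the ND range. GT minus ND was 0.56 ± 0.22 (limma, adjusted p = 0.223), and without GT 3 the change was 0.77 with an adjusted p of 0.0473.

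The remaining 4 members did not reach the filter in liver. Lep was listed at 0 in 8 of 9 liver libraries and at 0.723 FPKM in HFD 1. Adipoq was listed at 0 in 6, at 1.40 in HFD 1, 0.174 in HFD 3 and 0.0529 in GT 3. Retn was listed at 0 in 5, with its highest value, 0.479, again in HFD 1. Apln did not exceed 0.0420 FPKM in any liver library. HFD 1 was also the liver library with the most Plin1, a coat protein of fat-cell lipid droplets, at 0.399 FPKM, against 0.0356 in ND 1 and a listing of 0 in the other 7. The part of fat tissue in these traces was not tested.

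**Figure D4:**
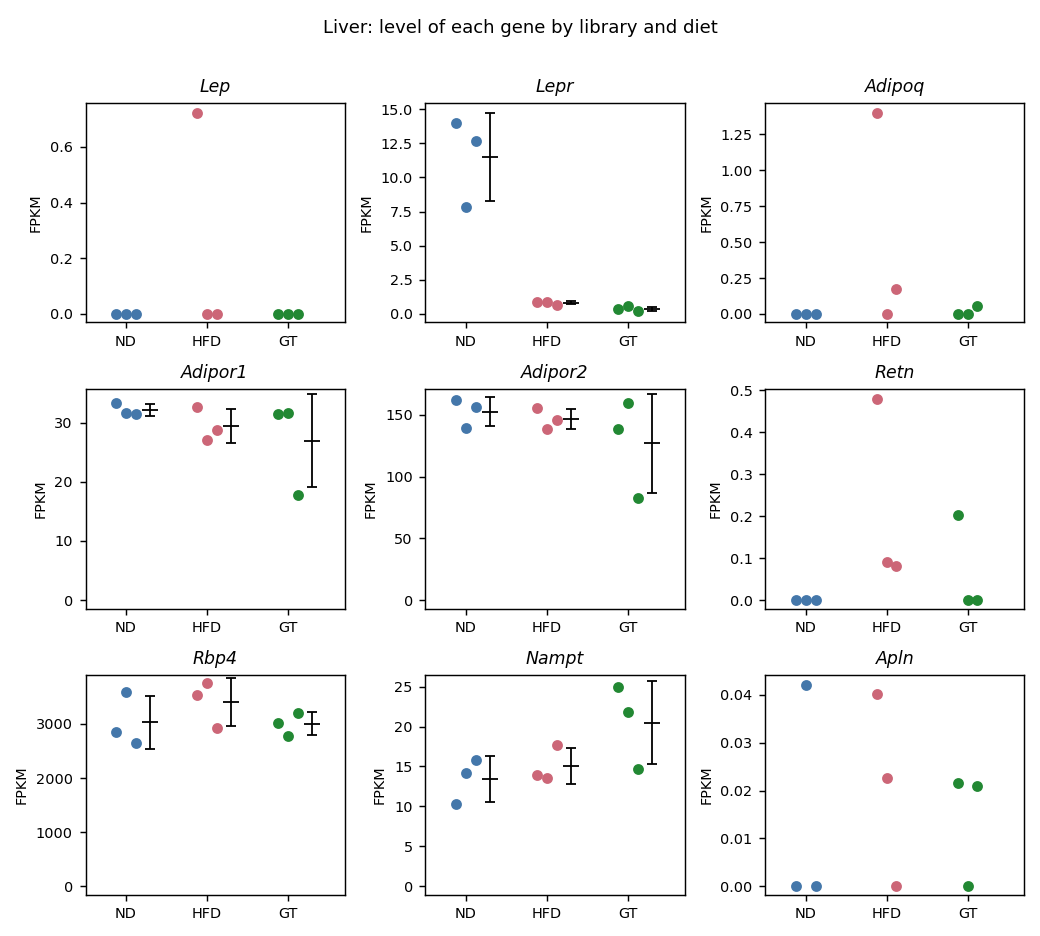
FPKM (linear axes, 1 panel a gene) of the 9 genes in the 9 liver libraries by diet; each dot is 1 library, and bars are mean ± SD for genes with a library of at least 2 FPKM. Lepr stands at 7.81 FPKM or more in ND and below 1 in every HFD and GT library, while Rbp4 stays between 2653 and 3763.

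The diet effects were then compared between the tissues in 1 fit of the 17 libraries without fat ND 1, for the 5 members kept in both. Lepr entered this fit through its liver ND libraries, so its calls are not read as a share of the members. For HFD minus ND the change in fat minus the change in liver was called for Rbp4, Adipor2 and Lepr, where 21.5% of 9957 genes were called. It was -1.58 ± 0.26 for Rbp4 (limma, adjusted p = 0.000542), -1.13 ± 0.31 for Adipor2 (adjusted p = 0.0148) and 2.58 ± 0.28 for Lepr (adjusted p = 3.07e-05). Rbp4 and Adipor2 fell in fat without ND 1 and were not called in liver, while Lepr fell in liver and was not called in fat. The Adipor2 difference did not pass without fat ND 2 (adjusted p = 0.0510) or at equal FPKM totals (-0.83, adjusted p = 0.122).

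For GT minus HFD 1 of 5 was called against 3.88% of genes: Rbp4, at 1.04 ± 0.25 (limma, adjusted p = 0.0276), higher in fat than in liver. The call of Rbp4 ended without any 1 of fat HFD 2, HFD 3, GT 2 and GT 3 or liver HFD 1, HFD 2 and GT 2, with an adjusted p of up to 0.0802. Adipor2 was at 1.01 ± 0.29 (limma, adjusted p = 0.0590) and did not pass, but it passed without fat GT 1, liver GT 2 or liver GT 3 (adjusted p = 0.0484, 0.0387 and 0.0481). For GT minus ND, where 9.44% of genes were called, the only member called was Lepr, at 3.01 ± 0.28 (limma, adjusted p = 3.21e-05). That call is again not read as a share of the members. Adipor1 and Nampt were not called in any of these comparisons, with adjusted p of at least 0.182 in limma.

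Within fat the order of mean levels changed with diet. Without ND 1 the normal-diet order was Adipoq at 2304 FPKM, Retn at 903, Rbp4 at 477, Adipor2 at 349, Lep at 320, Adipor1, Nampt, Apln and Lepr, with no neighbours overlapping in the 2 libraries. On the high-fat diet Lep at 1094 ± 169 and Adipoq at 990.5 ± 71.8 (SD, n = 3) led and overlapped, Retn and Rbp4 overlapped next, and the rest followed in the same order as before without overlap. With extract Adipoq at 1709 and Lep at 1209 overlapped, and so did Rbp4 and Adipor2. Leptin was therefore the fifth of these transcripts on the normal diet and among the first 2 on both high-fat diets.

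In liver the order was Rbp4, Adipor2, Adipor1, Nampt and Lepr on all 3 diets. Nampt at 13.4 FPKM and Lepr at 11.5 overlapped on the normal diet, and Adipor1 at 26.9 and Nampt at 20.5 overlapped with extract. The other neighbours among these 5 did not overlap.

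Partners of the hormones were read from 7 lists, also chosen with earlier results of these data known. In fat without ND 1, 33 of their 89 fitted genes were called for HFD minus ND, 16 higher and 17 lower, against the 27.4% of all genes (17.8% higher and 9.62% lower) given above. With ND 1 kept, 8 were higher and 3 lower of 90, against 5.28% and 0.371% of all genes.

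Of 17 leptin signalling genes 4 rose and 2 fell, with a list median of -0.05 against 0.01 over all genes. The risers were the adaptor Grb2 (1.53), the phosphatase Ptpn1 (1.28), which removes phosphate from JAK2, and Leprot (0.84) and Leprotl1 (0.78), which control how much leptin receptor reaches the cell surface. The insulin receptor substrates Irs2 and Irs1 fell by 1.30 and 1.00. Leprot and Lepr share their first exons, so the counting could split reads between them, and values of both are uncertain to that extent.

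Of 18 adiponectin signalling and assembly genes 2 rose and 3 fell (median -0.23). The chaperone Calr (1.16) and the acid ceramidase Asah1 (0.98) rose, while the alkaline ceramidase Acer2 (-0.93) and the kinase subunits Prkag2 (-0.92) and Prkaa2 (-0.66) fell. The apelin receptor Aplnr, the 1 gene of its list that was kept, rose although its ligand did not pass. It stood at 6.08 and 7.06 FPKM in ND 2 and ND 3, 23.4, 23.7 and 22.4 in the HFD libraries and 24.7, 24.3 and 19.0 in the GT libraries. Both high-fat diets lay above ND without overlap, and the HFD change was 1.68 ± 0.15 (limma, adjusted p = 0.00104).

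Of 7 genes of retinol transport 1 rose and 1 fell (median -0.02). Stra6l, a receptor for Rbp4, rose by 2.55, and Rbp7, a retinol carrier of fat cells and capillaries, fell by 1.65. Stra6l stood at 0.0686 and 0.363 FPKM in ND 2 and ND 3 and at 6.25, 5.62 and 6.40 in the HFD libraries. It was thus close to undetected in ND and present in every HFD library. Since Stra6l passed the filter only through its HFD and GT libraries, its rise is not read as a share of the list genes. Of 5 genes of the resistin family and its proposed receptors Cap1 rose (1.34) and Retnla fell by 1.63 (median 0.30). Of 12 NAD genes 1 rose and 2 fell (median -0.33): Parp1 (0.55), Cd38 (-0.57) and Nmrk1 (-0.59).

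Among 29 other adipokines and receptors 6 rose and 8 fell (median -0.02). The complement factor Cfd, also called adipsin, fell by 3.63 and the growth factor Nrg4 by 2.52. The chemokine Ccl2, which attracts monocytes, rose by 3.03 and C1qtnf6, a relative of adiponectin, by 1.49. Macrophage markers rose in the same libraries, as given above, and their part in the list values was not tested.

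For GT minus HFD in fat, 3 of the 89 list genes passed, against 1.70% of all genes. All 3 were higher, where 0.894% of all genes were, and all were other adipokines: Cfd (1.92), Nrg4 (1.25) and Fgf21 (0.96). In the first 6 lists 0 passed by limma. The share of all genes at an unadjusted p under 0.05 is not given, so no result is read from the 20 of 60 list genes that reached it. Those of smallest p were Cish (1.98, adjusted p = 0.0818) and Grb2 (-0.54, 0.102) for leptin, Cap1 (-0.67, 0.0661) and Retnla (1.39, 0.0696) for resistin. They were Calr (-0.43, adjusted p = 0.103) and Prkag2 (0.43, 0.134) for adiponectin, Rbp7 (1.23, 0.115) for retinol, and Naprt (0.33, 0.203) and Cd38 (0.31, 0.208) for NAD. Aplnr was at -0.04 (adjusted p = 0.880).

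In liver, 18 of 71 list genes were called for HFD minus ND, 9 in each direction, against 18.6% of all genes, 11.9% higher and 6.67% lower. Of 17 leptin signalling genes 4 fell and 0 rose (median -0.15 against -0.02 over all genes): Socs2 (-2.03), Irs2 (-1.26), Irs1 (-0.79) and Stat3 (-0.70), the transcription factor downstream of the receptor. Of 17 adiponectin signalling genes 4 fell and 1 rose (median -0.28), among them the kinase subunits Prkab1 (-0.65) and Prkag2 (-0.60) and the adaptor Appl1 (-0.51), with Gstk1 higher (0.56).

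The list of retinol transport had a median of 0.48 in liver, and Ttr was among the genes that rose. Transthyretin (Ttr), which carries Rbp4 in blood, stood at 2291, 2828 and 2453 FPKM in the ND libraries, 4539, 5937 and 5188 in HFD and 2986, 2731 and 3620 in GT. HFD lay above both other diets without overlap, by 1.05 over ND, and GT minus HFD was -0.75 (limma, adjusted p = 0.0429). Ttr thus changed while Rbp4 in liver did not pass. Of 13 NAD genes and 2 resistin genes 0 passed by limma, with 2 and 0 at an unadjusted p under 0.05. Those of smallest p were Nmnat1 (0.44, adjusted p = 0.0919) and Nmnat3 (-0.31, 0.124) for NAD and Cap1 (0.15, 0.544) and Dcn (0.18, 0.569) for resistin.

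Of 15 other adipokines and receptors 6 rose and 1 fell in liver (median 0.40). Cfd rose by 5.48, Lcn2 by 3.33, Ccl2 by 1.21 and Rarres2 by 1.06. Cfd stood at 1.78, 3.11 and 0.720 FPKM in the liver ND libraries and passed the filter only with its HFD and GT libraries. Its rise is therefore not read as a share of the list genes. For GT minus HFD, list genes that passed included Stat3 (0.69) and Prkab1 (0.59), which were higher, and Ttr, Dcn (-0.87), Fgf21 (-2.07), Lcn2 (-1.91) and Ccl2 (-1.26), which were lower. No NAD gene passed there by limma, with 2 at an unadjusted p under 0.05, Nmrk1 (0.72, adjusted p = 0.0533) and Cd38 (-0.40, 0.207) having the smallest.

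The genes whose log2(FPKM + 1) tracked a member most closely are given as a description, since the values share libraries and diets. Over the 8 fat libraries, Lep was most like Slc5a7 (Pearson r = 0.995), Endod1 (0.987) and Trdn (0.987), out of 12134 named genes. Slc5a7, a choline transporter, stood at 5.69 and 6.45 FPKM in ND 2 and ND 3 and between 20.8 and 39.2 in HFD and GT. Adipoq was most like Pygb (0.996), Cd164l2 (0.996) and Ano10 (0.995). Pygb, a glycogen phosphorylase, stood at 94.7 and 69.8 FPKM in ND 2 and ND 3, at 41.1 to 45.7 in HFD and 50.3 to 82.1 in GT. Retn was most like Actr6 (0.993), Bmp4 (0.990) and Cyyr1 (0.988). Over the 9 liver libraries Lepr was most like Cyp4a31 (0.983), Msmp (0.976) and Amigo1 (0.974), out of 10112. Cyp4a31, a fatty acid hydroxylase, stood at 77.4, 41.0 and 89.1 FPKM in ND and between 9.47 and 15.1 in HFD and GT, with ND 2 the lowest ND library as for Lepr.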

How the data were processed

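PolyA RNA libraries of epididymal fat and liver were analysed from the authors' deposited table of FPKM per gene, made with CASAVA 1.8.2, STAR 2.4.0 and Cufflinks 2.1.1 per the submitters' processing notes. Its genome build was not given in the sources used here. Whole reads were not recovered. Gene identifiers were matched to symbols (22671 of 23474). The members and gene lists were chosen with earlier results of these data known. Promoter windows come from RefSeq, where all 9 members matched.

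Genes with at least 1 FPKM in at least 3 libraries of a fit were tested as log2(FPKM + 1), the pseudocount being 1, in limma 3.58.1 (R 4.3.3, trend and robust), with a mean per diet and Benjamini-Hochberg adjustment over all genes at 0.05. Fits used the 9 fat libraries, the 8 without ND 1, the 9 liver libraries, or 17 libraries of both tissues for tissue differences. Named list genes were up to 4 called genes of smallest p per list, or up to 2 where none was called, and 1 gene that this rule names is not reported here. Irs1, Irs2 and Prkaa2 in fat were named beyond this rule, after their values were seen. Genes most like a member were the 3 of highest Pearson r. The fit was tested on simulated data. Same-numbered libraries did not deviate together in every pair, so no block entered the fits. Alternatives were a pseudocount of 0.1, no filter, equal FPKM totals, quantile scaling, a replicate block, only the compared diets, each library left out, and, chosen after seeing the data, fat also without ND 3 and HFD 1 and liver without HFD 2 and GT 3. The list gene Asip and the markers Tf and Acta1 were not analysed here. Python 3.11.15, pandas 2.3.3, NumPy 2.4.6 and matplotlib 3.10.9 made tables and plots.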

Additional observations from a re-analysis of the deposited data

Results flagged for a closer look

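Diet effects that differed between the tissues by the test of the difference itself (limma, 17 libraries without fat ND 1) stood out for 3 members. For HFD minus ND, the change in fat minus that in liver was -1.58 for Rbp4, -1.13 for Adipor2 and 2.58 for Lepr. It was 1.04 for Rbp4 in GT minus HFD and 3.01 for Lepr in GT minus ND. The Lepr differences stand on 3 liver ND libraries at 7.81 to 14.0 FPKM, while Lepr in fat stayed between 0.394 and 1.43 FPKM in all 9 libraries.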

How the results depend on the processing

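Over 84 member changes and 1395 alternatives, 1304 kept direction and side of the threshold, 19 lost and 26 gained a call, and 46 changed sign, 34 of these with 1 library left out. In fat without ND 1, 5 members were called for HFD minus ND under every alternative and left-out library that kept both ND libraries. Leaving out ND 2 or ND 3 as well left 1 ND library, with no spread of its own. The 5 changes kept their sign there, and no member's HFD minus ND or GT minus ND call is read from those fits. Lepr in liver held for HFD minus ND and GT minus ND under every alternative and left-out library. The liver filter was not set anew when a library was left out, so Lepr stayed in without a liver ND library. The causes below were not tested except where fewer libraries or genes were fitted. Same-numbered libraries share only a number: their deviations correlated at -0.62 to 0.32 in fat without ND 1 and -0.30 to 0.42 in liver. Both ends in fat come from pairs with ND 2 or ND 3. With 2 ND libraries the deviations of these mirror each other by construction, so those pairs cannot decide on pairing. Between HFD and GT the same-numbered fat libraries gave 0.207, 0.055 and -0.069.

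Members called for GT minus HFD in fat without ND 1, 1 as reported, were 0 at a pseudocount of 0.1, 0 with no filter, 0 with the replicate block (Rbp4 0.87, adjusted p = 0.126; the block changed no other member's call), 2 with quantile scaling, 3 with only the compared diets and 0 to 3 with a library left out. With all 9 fat libraries they were 2 with only the compared diets, and 0 to 5, 0 to 1 and 0 to 1 over the 3 comparisons with a library left out. For GT minus ND without ND 1 they were 3 with quantile scaling, 0 with only the compared diets and 1 to 2 with an HFD or GT library left out. In liver, GT minus ND gave 1 to 2 with a library left out. Tissue differences gave 6 for HFD minus ND with no filter, 0 for GT minus HFD at equal totals, 2 for GT minus ND with no filter and 2 with quantile scaling, and 0 to 2 for GT minus HFD with a library left out. With no filter all 9 members entered the tissue differences, instead of the 5 kept in both tissues.

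Sign changed in fat for HFD minus ND in Adipoq (0.326 at equal totals, 0.234 with quantile scaling), Adipor2 (-0.021) and Lepr (-0.009), both with quantile scaling. Without ND 1 it changed in Adipor1 for HFD minus ND (0.043 at equal totals) and, without ND 3 and HFD 1 as well, in Apln for HFD minus ND (0.080), Lepr for GT minus HFD (-0.064) and Nampt for GT minus ND (-0.185). In liver it changed in Rbp4 (-0.045) and Nampt (-0.037) for HFD minus ND at equal totals, Adipor1 for GT minus HFD without HFD 2 and GT 3 (0.040) and Rbp4 for GT minus ND with quantile scaling (0.029).

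With a library left out, changes that crossed 0 had these ranges. With all 9 fat libraries, HFD minus ND ran from -1.405 to 0.085 for Rbp4, -1.188 to 0.701 for Adipoq, -1.184 to 0.752 for Adipor2, -0.172 to 0.228 for Lepr, -0.164 to 0.920 for Apln and -0.043 to 0.573 for Adipor1, each lowest without ND 1. Adipor2 was called there without ND 1. GT minus HFD ran from -0.064 to 0.105 for Lepr, and GT minus ND from -0.537 to 0.953 for Rbp4, -0.432 to 1.457 for Adipoq, -0.828 to 0.015 for Retn, -0.433 to 1.503 for Adipor2 and -0.140 to 0.261 for Lepr. Without ND 1, HFD minus ND ran from -0.359 to 0.014 for Lepr and -0.398 to 0.070 for Apln, GT minus HFD from -0.064 to 0.105 for Lepr, and GT minus ND from -0.185 to 0.279 for Nampt, -0.326 to 0.047 for Lepr and -0.036 to 0.454 for Apln. In liver, HFD minus ND ran from -0.003 to 0.287 for Nampt, GT minus HFD from -0.455 to 0.020 for Adipor2 and -0.301 to 0.097 for Adipor1, and GT minus ND from -0.093 to 0.124 for Rbp4. Tissue differences ran from -0.077 to 0.386 for Nampt (HFD minus ND) and -0.398 to 0.078 for Adipor2 (GT minus ND).

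Calls over all genes moved more. Beside the main counts, the other settings gave these ranges for HFD minus ND, GT minus HFD and GT minus ND: all 9 fat libraries 777, 0 and 88 against 317 to 873, 0 to 560 and 0 to 278; fat without ND 1 3527, 218 and 1370 against 2279 to 3912, 3 to 636 and 6 to 1649; liver 1980, 572 and 277 against 1463 to 2947, 173 to 551 and 99 to 436; tissue differences 2145, 386 and 940 against 1957 to 3327, 138 to 478 and 588 to 1472. Left-out libraries gave 2070 to 3868, 3 to 638 and 138 to 2588 in fat without ND 1 and 474 to 3363, 45 to 1223 and 53 to 416 in liver. Equal totals moved the median change of all genes for HFD minus ND from -0.018 to -0.198 in liver, from 0.132 to 0.414 with all 9 fat libraries and from 0.049 to 0.301 for tissue differences, and in liver they gave 613 higher and 850 lower calls against 1268 and 712. Quantile scaling gave 206 higher and 81 lower calls for GT minus HFD in fat without ND 1, against 115 and 103. Depth is unknown, and 2 ND libraries limit the fat comparisons.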

Other observations

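Fat ND 1, the library with testis and epididymis transcripts, did not hold the fat hormones in the proportions of the other ND libraries. Per 1000 FPKM of adipocyte markers it held 76.8 of Retn against 20.6 and 18.9 in ND 2 and ND 3, 15.6 of Rbp4 against 10.4 and 10.8, 44.3 of Adipoq against 50.7 and 50.8, 5.27 of Adipor2 against 6.67 and 9.23, and 1.75 of Lep against 5.89 and 8.81. Its ratio of Retn to Adipoq transcript was 1.73, against 0.406 and 0.372 in the other ND libraries, 0.189 to 0.261 in HFD and 0.280 to 0.327 in GT. Resistin transcript was thus high and leptin transcript low for the amount of adipocyte marker in that library. The ratio of Retn to Adipoq was also lower in every HFD and GT library than in any ND library. These are values of single libraries with no test.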
